A study of Mus musculus with 30 samples.

Results

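Transcripts of 10 cell cycle genes were followed in C2C12 myotubes: the D-type cyclins Ccnd1, Ccnd2 and Ccnd3, the S and M phase cyclins Ccne1, Ccna2, Ccnb1 and Ccnb2, and the cyclin-dependent kinases Cdk1, Cdk2 and Cdk4. They were chosen by name from RNA-sequencing counts of 55487 mouse genes, and all 10 were among the 15907 genes with enough counts to be tested. C2C12 is a mouse myoblast line whose cells fuse into multinucleated myotubes when serum is lowered, so it is 1 line and not muscle tissue. All 30 libraries came from wild-type C2C12 myotubes that had first spent 4 days in low-glucose DMEM with 2% horse serum. For the next 4 days (8 days in total) 6 libraries per group were kept in 2% horse serum (2% HS), deprived of serum (SD), or deprived of serum with 100 nM metformin (MET), 500 nM leucine (LEU) or both (MET+LEU). No label ties a library to its own culture, so p-values measure only the spread between these libraries, which may be technical. Because SD stands for serum deprivation here, the standard deviation is written s.d. throughout.

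Cyclins have no catalytic activity of their own and work by binding and activating cyclin-dependent kinases. D-type cyclins are made in answer to growth signals, pair mainly with Cdk4 and its relative Cdk6, and begin the phosphorylation of the retinoblastoma protein that frees E2F transcription factors. Cyclin E with Cdk2 then drives entry into DNA synthesis, cyclin A2 serves Cdk2 during DNA synthesis and Cdk1 afterwards, and the B-type cyclins with Cdk1 drive mitosis. Myoblasts leave the cell cycle as they differentiate, and cyclin D3, unlike cyclin D1, is known to rise in differentiating muscle cells.

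Libraries held 12784960 to 19604103 counts, and the scaled level of a gene is given as counts per 1000000 counts after TMM scaling (CPM). Of the 10 markers fixed for myotubes, all 10 were tested, with Myog at 11055 to 21082 counts and Ttn at 327656 to 626465 counts per library. MET+LEU replicate 6 stood apart, with 5.85% of its counts on ribosomal RNA genes and 7.64% on mitochondrial ribosomal RNA, where the highest values of the other 29 libraries were 1.96% and 0.76%. Leaving it out kept 6 members changed in MET+LEU vs. SD. Over all genes tested, 2175 then changed in that comparison, where the full set of libraries gave 2931. These are whole-culture measurements, in which fewer cells of a type and less RNA per cell cannot be told apart.

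Promoter windows from RefSeq (GRCm38.p6, 250 bases before to 50 bases after an annotated start) were held for 7 of the 10 genes, and the entries for Ccna2, Ccnd1 and Ccnd2 are missing. The windows of Ccnb1, Ccnb2 and Cdk1 are printed because these genes act at mitosis, and those of Ccnd3 (the downstream of its 2 annotated starts) and Cdk4 are printed because these genes act before DNA synthesis. Each runs 5′ to 3′ on the strand of the gene, and capitals mark 3 kinds of match, searched on both strands: the CHR element (TTTGAA or TTCGAA), the CCAAT box (CCAAT) and an E2F site (TTTGGCGC, TTTCGCGC, TTTCCCGC or TTTGCCGC).
Ccnb1, chr13:100786437-100786736, minus strand: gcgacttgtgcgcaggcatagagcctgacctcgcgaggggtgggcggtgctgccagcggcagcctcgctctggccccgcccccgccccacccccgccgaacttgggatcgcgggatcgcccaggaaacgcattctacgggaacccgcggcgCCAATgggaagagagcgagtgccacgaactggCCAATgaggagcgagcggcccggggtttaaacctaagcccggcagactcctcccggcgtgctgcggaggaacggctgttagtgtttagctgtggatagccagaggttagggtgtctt
Ccnb2, chr9:70421505-70421804, minus strand: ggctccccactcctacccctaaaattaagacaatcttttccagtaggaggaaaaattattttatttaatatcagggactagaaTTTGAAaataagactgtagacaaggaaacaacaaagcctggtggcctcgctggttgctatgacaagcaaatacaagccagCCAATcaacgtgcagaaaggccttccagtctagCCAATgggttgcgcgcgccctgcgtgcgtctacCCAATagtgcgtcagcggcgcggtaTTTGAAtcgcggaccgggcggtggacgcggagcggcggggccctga
Cdk1, chr10:69352863-69353162, minus strand: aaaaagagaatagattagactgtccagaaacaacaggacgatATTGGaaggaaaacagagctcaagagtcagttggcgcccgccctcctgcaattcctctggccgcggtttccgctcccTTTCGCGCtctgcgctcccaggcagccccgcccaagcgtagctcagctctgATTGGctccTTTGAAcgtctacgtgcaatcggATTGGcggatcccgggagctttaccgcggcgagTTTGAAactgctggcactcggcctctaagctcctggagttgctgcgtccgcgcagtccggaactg
Ccnd3, chr17:47593217-47593516, plus strand: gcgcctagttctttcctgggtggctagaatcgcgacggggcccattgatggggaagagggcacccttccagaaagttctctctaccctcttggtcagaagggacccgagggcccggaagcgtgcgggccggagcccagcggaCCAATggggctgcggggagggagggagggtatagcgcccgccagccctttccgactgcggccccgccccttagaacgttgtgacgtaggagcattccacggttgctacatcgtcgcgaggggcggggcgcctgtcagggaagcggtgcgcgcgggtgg
Cdk4, chr10:127063285-127063584, plus strand: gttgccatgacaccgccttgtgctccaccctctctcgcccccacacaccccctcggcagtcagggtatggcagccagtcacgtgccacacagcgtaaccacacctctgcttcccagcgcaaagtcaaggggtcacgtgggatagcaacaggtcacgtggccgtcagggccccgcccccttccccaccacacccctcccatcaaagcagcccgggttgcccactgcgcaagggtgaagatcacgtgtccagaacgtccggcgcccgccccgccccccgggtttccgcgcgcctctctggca
Counted from 1 at the 5′ end, the Ccnb2 window held CHR matches at 84 and 255 and CCAAT boxes at 164, 197 and 230. In the Cdk1 window the CHR matches began at 180 and 236, the CCAAT boxes, read on the opposite strand, at 43, 171 and 203, and an E2F site at 120. The Ccnb1 window held CCAAT boxes at 152 and 184 and the Ccnd3 window at 143, and the Cdk4 window held none of the 3 motifs. The Cdk2 window, not printed, held 1 CCAAT box and 1 E2F site, and that of Ccne1 none. The window of the upstream Ccnd3 start, also not printed, held none of the 3 motifs. Among all 32851 windows of this length, 19.2% held a CHR match, 37.4% a CCAAT box, 2.3% an E2F site, and 7.5% both a CHR match and a CCAAT box. A match is a match of letters only, and occupancy by a factor was not measured.

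Serum removal moved 2 of the 3 D-type cyclins, in opposite directions, and the combined treatment lowered all 4 S and M phase cyclins. Of these 4, the call of Ccne1 was lost in 11 of 38 alternative fits. In SD vs. 2% HS, Ccnd1 was upregulated and Ccnd3 and Cdk2 were downregulated, so 3 of the 10 members changed, beside 27.8% of all genes tested. In MET+LEU vs. SD, all 4 S and M phase cyclins, Cdk1 and Cdk2 were downregulated and no D-type cyclin changed, so 6 of 10 members changed, beside 18.4% of all genes (7.8% downregulated). LEU vs. SD lowered Ccna2 and Ccnb1, 2 of 10 members beside 0.553% of all genes, and MET vs. SD changed 0 of 10 members beside 0.157% of all genes. For these 0 members of MET vs. SD, edgeR gave an unadjusted p under 0.05 for 2 (Cdk2 and Ccnb1), limma-voom changed 0, and DESeq2 changed 0 of the 6 for which it gave an adjusted p (none was given for Ccne1, Ccnb1, Ccnb2 and Cdk1). A gene counts as changed where its p from the edgeR quasi-likelihood test, adjusted over all 15907 genes by Benjamini-Hochberg, was under 0.05. The groups' libraries did not overlap for 3 members in SD vs. 2% HS (13.6% of all genes), 1 in MET vs. SD (0.717%), 3 in LEU vs. SD (1.31%) and 4 in MET+LEU vs. SD (5.34%). The 3 treatments share the 6 SD libraries as their reference, so their values stand side by side and are not independent of each other.

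**Figure D1:**
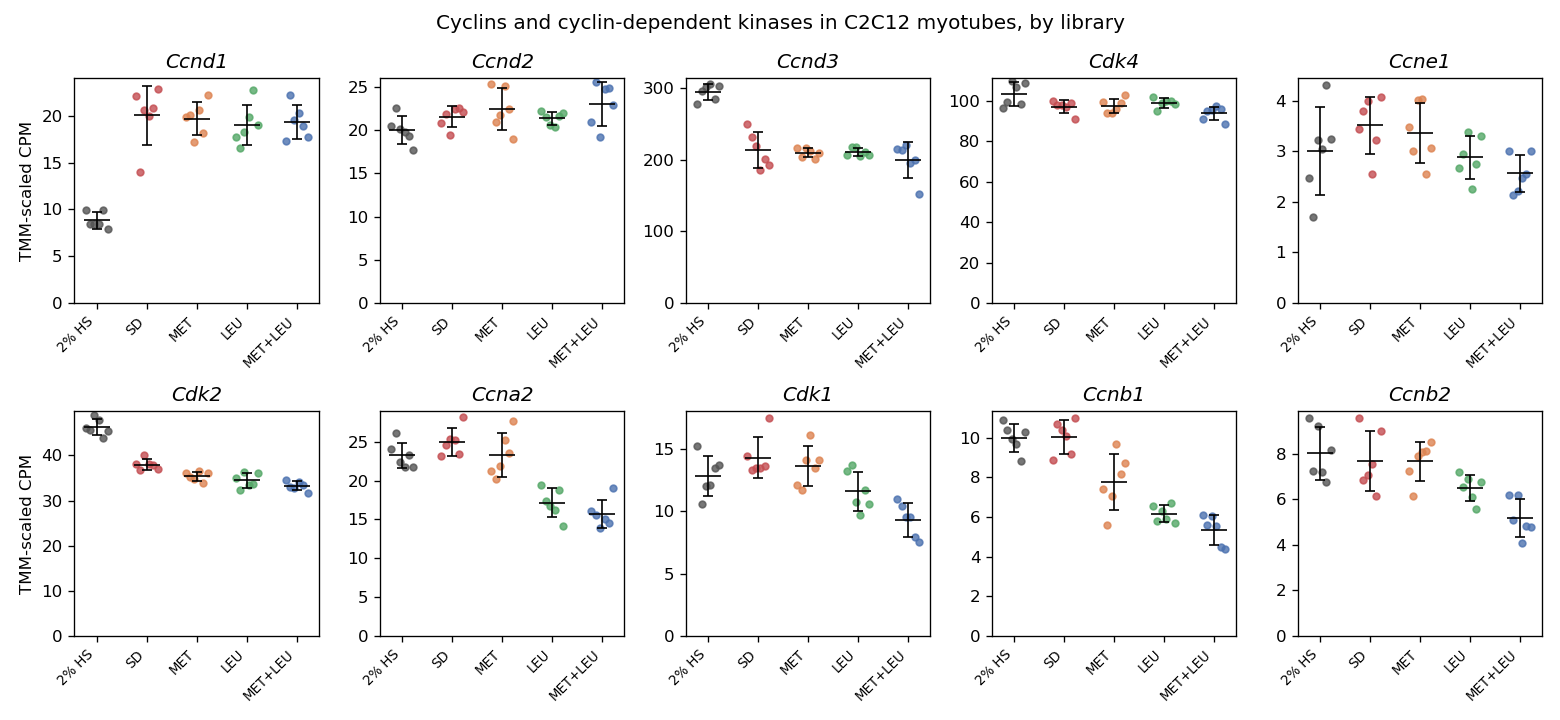
TMM-scaled CPM (vertical axes, from 0) of the 10 genes in each of 30 libraries, by group (horizontal axes, 6 points per group), with black bars for the mean ± s.d. Ccnd1 sits at 7.88 to 9.98 CPM in 2% HS and at 14 CPM or more in every other group, and Ccna2, Ccnb1 and Cdk1 are lowest in MET+LEU.

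Ccnd1, which encodes cyclin D1 (chromosome 7, 144929931 to 144939925, minus strand, GRCm38), showed the largest change of the 10 genes. The 6 libraries of 2% HS held 7.88 to 9.98 CPM with a median of 8.43, and those of SD held 14 to 22.9 CPM with a median of 20.8. Every SD library therefore lay above every 2% HS library, although SD replicate 2, at 14 CPM, lay below its other 5, which began at 20 CPM. The mean rose from 8.84 ± 0.886 to 20.1 ± 3.16 CPM (s.d., n = 6), a log2 fold change of 1.19 ± 0.09 (SE), or 2.28-fold, with an adjusted p of 2.0e-14. Treated libraries were close to that level, with 19.7 ± 1.75 CPM (17.2 to 22.2) for MET, 19.1 ± 2.15 (16.6 to 22.8) for LEU and 19.4 ± 1.78 (17.3 to 22.2) for MET+LEU. The log2 fold changes against SD were -0.03 (95% interval -0.19 to 0.13) for MET, -0.08 (-0.27 to 0.11) for LEU and -0.05 (-0.24 to 0.14) for MET+LEU. The adjusted p-values of these 3 comparisons lay between 0.735 and 0.949. In the order of group means, the 4 serum-free groups did not differ from their neighbours, and LEU, the lowest of them, differed from 2% HS with an adjusted p of 1.8e-13.

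Ccnd3, which encodes cyclin D3 (chromosome 17, 47505051 to 47599691, plus strand), moved the other way. Its libraries held 278 to 305 CPM in 2% HS (median 298) and 186 to 249.8 CPM in SD (median 209.9). The groups did not overlap, and all 6 SD libraries were lower. The mean went from 295 ± 11.1 to 213 ± 24.6 CPM (s.d., n = 6), so Ccnd3 fell by 27.5%, a log2 fold change of -0.46 ± 0.07 with an adjusted p of 1.7e-06. MET held 201 to 216 CPM, LEU 205 to 218 and MET+LEU 152 to 220.3, and none of these groups passed the test against SD. The interval for MET+LEU vs. SD ran from -0.24 to 0.04 around -0.10 on the log2 scale. The library at 152 CPM was MET+LEU replicate 6, and without it the log2 fold change was -0.039 (adjusted p = 0.654). Against 2% HS, Ccnd3 was lower in MET+LEU by a log2 fold change of -0.56 ± 0.07 (adjusted p = 4.2e-08).

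Ccnd2, which encodes cyclin D2 (chromosome 6, 127125162 to 127152193, minus strand), varied least among the D-type cyclins. Its means ran from 20 ± 1.6 CPM in 2% HS through 21.4 ± 0.731 in LEU, 21.5 ± 1.25 in SD and 22.5 ± 2.45 in MET to 23.1 ± 2.54 in MET+LEU (s.d., n = 6). No neighbours in that order differed beyond their spread, with adjusted p-values between 0.318 and 0.989. Between the ends of the order, Ccnd2 was upregulated in MET+LEU vs. 2% HS by a log2 fold change of 0.21 ± 0.07 (adjusted p = 0.0131), with libraries of the groups overlapping. That call was lost when 2% HS replicate 6 (adjusted p = 0.061), MET+LEU replicate 2 (0.0612) or MET+LEU replicate 4 (0.0515) was left out.

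Levels of different genes can be compared only per length, so CPM was divided by the length of each gene's exons in kilobases (RPKM). On this scale Ccnd3 was the leading D-type cyclin in every group. In 2% HS it stood at 33.6 RPKM, Ccnd2 at 2.13 and Ccnd1 at 1.88 RPKM, and in SD they stood at 24.3, 2.29 and 4.27 RPKM. In 2% HS the libraries of the minor pair overlapped, at 1.67 to 2.12 RPKM for Ccnd1 and 1.88 to 2.4 for Ccnd2, so their order there is not settled. In SD Ccnd1 lay above Ccnd2, at 2.98 to 4.87 against 2.06 to 2.4 RPKM. Lengths joined all annotated exons of a gene (4709 bases for Ccnd1 and 9409 for Ccnd2), and gaps between genes depend on that choice. Of the summed D-type RPKM, Ccnd1 held 5.01% ± 0.643 in 2% HS and 13.9% ± 2.51 in SD, and it held 13.7%, 13.3% and 14.1% in MET, LEU and MET+LEU. Ccnd3 exceeded Ccnd1 by 18.1 ± 2.34 times in 2% HS and by 5.88 ± 1.56 times in SD, and the ranges over libraries (15 to 20.6 and 4.51 to 8.87) did not overlap. These ratios are descriptions and were not tested.

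**Figure D2:**
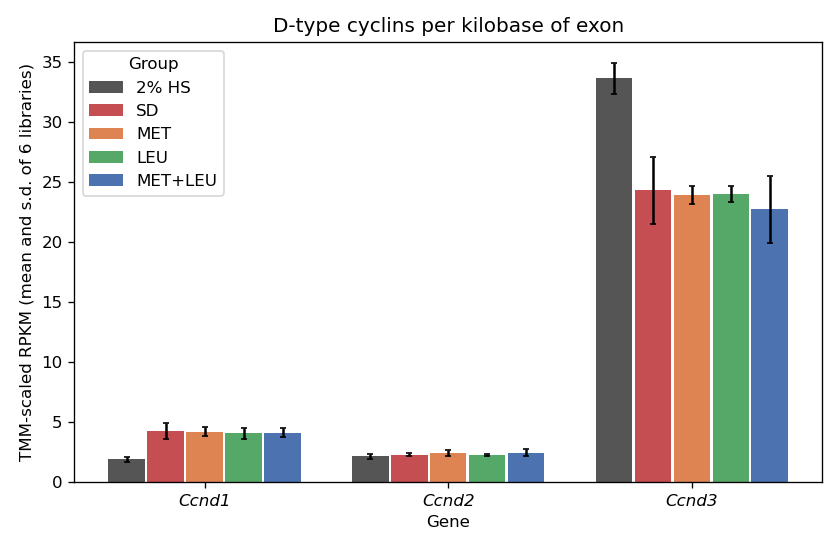
TMM-scaled RPKM (vertical axis, from 0) of the D-type cyclins (horizontal axis) in each group, with bars for the mean of 6 libraries and error bars for the s.d. Ccnd3 falls from 33.6 RPKM in 2% HS to 24.3 in SD while Ccnd1 rises from 1.88 to 4.27, and the serum-free groups stand close together for each gene.

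Cdk4, the main kinase partner of D-type cyclins (chromosome 10, 127063534 to 127067920, plus strand), varied little. Its level was 103 ± 5.99 CPM with 2% HS and 97.1 ± 3.29 in SD, and the treated groups held 97.5 ± 3.44 (MET), 99.0 ± 2.28 (LEU) and 93.8 ± 3.38 CPM (MET+LEU; s.d., n = 6). Per length it stood at 31.8 RPKM in 2% HS, near Ccnd3 and above every other member. The log2 fold change in SD vs. 2% HS was -0.09 ± 0.04 with an adjusted p of 0.067. This value lay close to the threshold, and it passed in DESeq2 (0.0461), with upper-quartile scaling (0.0393), and without 2% HS replicate 1 (0.0281), 2 (0.0448) or 5 (0.0431), SD replicate 1 (0.0491) or MET+LEU replicate 6 (0.0403). No treatment passed the test against SD, and the interval for MET+LEU vs. SD was -0.13 to 0.03 on the log2 scale. Only the ends of the order of means differed, with Cdk4 lower in MET+LEU vs. 2% HS by a log2 fold change of -0.14 ± 0.04 (adjusted p = 0.00217).

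Cdk2, the partner of cyclins E and A2 (chromosome 10, 128697939 to 128705031, minus strand), stepped down from 2% HS to MET+LEU. Libraries held 43.9 to 48.9 CPM in 2% HS (median 45.8) and 36.8 to 40 CPM in SD (median 38.0). The groups were apart, and Cdk2 fell by 17.9%, a log2 fold change of -0.29 ± 0.04 with an adjusted p of 5.2e-07. In MET+LEU its libraries held 31.7 to 34.6 CPM (median 33.3), all below all 6 SD libraries, with a further log2 fold change of -0.19 ± 0.04 (adjusted p = 0.00159). MET at 33.9 to 36.5 CPM and LEU at 32.3 to 36.4 CPM also lay wholly below SD. Their log2 fold changes of -0.10 ± 0.04 and -0.14 ± 0.04 did not pass the test (adjusted p = 0.408 and 0.148). In the order of means, only 2% HS and SD differed as neighbours.

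Ccne1, which encodes cyclin E1 (chromosome 7, 38097984 to 38107534, minus strand), was the scarcest member at 22 to 69 counts per library. From the highest mean to the lowest it stood at 3.51 ± 0.566 CPM in SD, 3.36 ± 0.595 in MET, 3.00 ± 0.870 with 2% HS, 2.88 ± 0.422 in LEU and 2.56 ± 0.371 with both agents (s.d., n = 6). Libraries of all groups overlapped, and no neighbours in this order differed. Ccne1 was downregulated in MET+LEU vs. SD by a log2 fold change of -0.46 ± 0.16 with an adjusted p of 0.0419, the call nearest to the threshold among the members. It was lost in 11 of 38 alternatives, among them limma-voom (0.0502), no low-count filter (0.0618) and a fit of the compared groups alone (0.0675). It was also lost without SD replicate 1 (0.0603), 2 (0.0764), 3 (0.0863) or 6 (0.0823), or without MET+LEU replicate 2 (0.0829), 3 (0.0779), 4 (0.0621) or 5 (0.0553). Its log2 fold change stayed between -0.543 and -0.414 as libraries were left out.

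Ccna2, which encodes cyclin A2 (chromosome 3, 36564865 to 36572150, minus strand), split the groups into a higher and a lower set. Libraries held 21.8 to 26.1 CPM in 2% HS (median 22.9), 23.2 to 28.2 in SD (median 24.9) and 20.2 to 27.7 in MET (median 22.7). The LEU libraries held 14.2 to 19.4 CPM (median 17.1) and the MET+LEU libraries 13.9 to 19 CPM (median 15.3). No library with leucine reached any library without it. Against SD, Ccna2 fell by 31.4% in LEU, a log2 fold change of -0.54 ± 0.08 (adjusted p = 7.9e-05), and by 37.4% in MET+LEU, a log2 fold change of -0.67 ± 0.08 (adjusted p = 3.7e-08). For MET vs. SD the log2 fold change was -0.10 with an interval of -0.24 to 0.04. The difference between the single treatments was itself past the threshold, at -0.44 ± 0.08 in LEU vs. MET (adjusted p = 0.00894), where 1 of 10 members changed beside 0.0754% of all genes. LEU and MET+LEU did not differ beyond their spread (log2 fold change -0.13, interval -0.29 to 0.03).

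Cdk1, the mitotic kinase (chromosome 10, 69335146 to 69352938, minus strand), held 10.6 to 15.2 CPM in 2% HS (median 12.8), 13.3 to 17.5 in SD (median 13.6) and 11.7 to 16.1 in MET (median 13.8). In LEU it held 9.71 to 13.7 CPM (median 11.2) and in MET+LEU 7.53 to 11 CPM (median 9.53). All MET+LEU libraries lay below all SD and all MET libraries. Cdk1 fell by 34.4% in MET+LEU vs. SD, a log2 fold change of -0.61 ± 0.10 (adjusted p = 2.1e-05). With LEU the log2 fold change was -0.30 ± 0.10 and did not pass (adjusted p = 0.175). MET+LEU vs. LEU gave -0.31 ± 0.10 with an adjusted p of 0.0569.

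Ccnb1, which encodes cyclin B1 (chromosome 13, 100778650 to 100786570, minus strand), had the deepest fall of the 10 genes. Its libraries held 8.85 to 10.9 CPM in 2% HS (median 10.1) and 8.86 to 11 CPM in SD (median 10.2). These ranges nearly coincided, and the log2 fold change of 0.00 (interval -0.21 to 0.21) turned sign with the scaling. In MET+LEU the libraries held 4.37 to 6.12 CPM (median 5.57), all below SD, and Ccnb1 fell by 46.2%, a log2 fold change of -0.89 ± 0.11 (adjusted p = 7.7e-08). In LEU they held 5.69 to 6.71 CPM (median 6.11), and Ccnb1 fell by 38.5%, a log2 fold change of -0.70 ± 0.10 (adjusted p = 1.5e-04). MET stood between, at 5.59 to 9.71 CPM (median 7.80), a range that overlapped SD, LEU and MET+LEU. The log2 fold change of MET vs. SD was -0.36 ± 0.10 with an unadjusted p of 7.2e-04 and an adjusted p of 0.121. Against 2% HS the same level of MET passed the test (-0.36 ± 0.10, adjusted p = 0.00388), and LEU vs. MET did not (-0.34 ± 0.11, adjusted p = 0.277).

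Ccnb2, which encodes cyclin B2 (chromosome 9, 70407692 to 70421547, minus strand), held 6.77 to 9.59 CPM in 2% HS (median 7.72), 6.16 to 9.57 in SD (median 7.32) and 6.15 to 8.52 in MET (median 7.99). In LEU it held 5.60 to 7.19 CPM (median 6.65) and in MET+LEU 4.07 to 6.19 CPM (median 4.96). Only a sliver of overlap remained between MET+LEU and SD, from 6.16 to 6.19 CPM. Ccnb2 fell by 33.0% in MET+LEU vs. SD, a log2 fold change of -0.58 ± 0.12 (adjusted p = 4.1e-04). The change with LEU was -0.24 ± 0.11 (adjusted p = 0.462) and that with MET -0.01 (interval -0.24 to 0.22). MET+LEU vs. LEU gave -0.33 ± 0.12 (adjusted p = 0.0854).

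**Figure D3:**
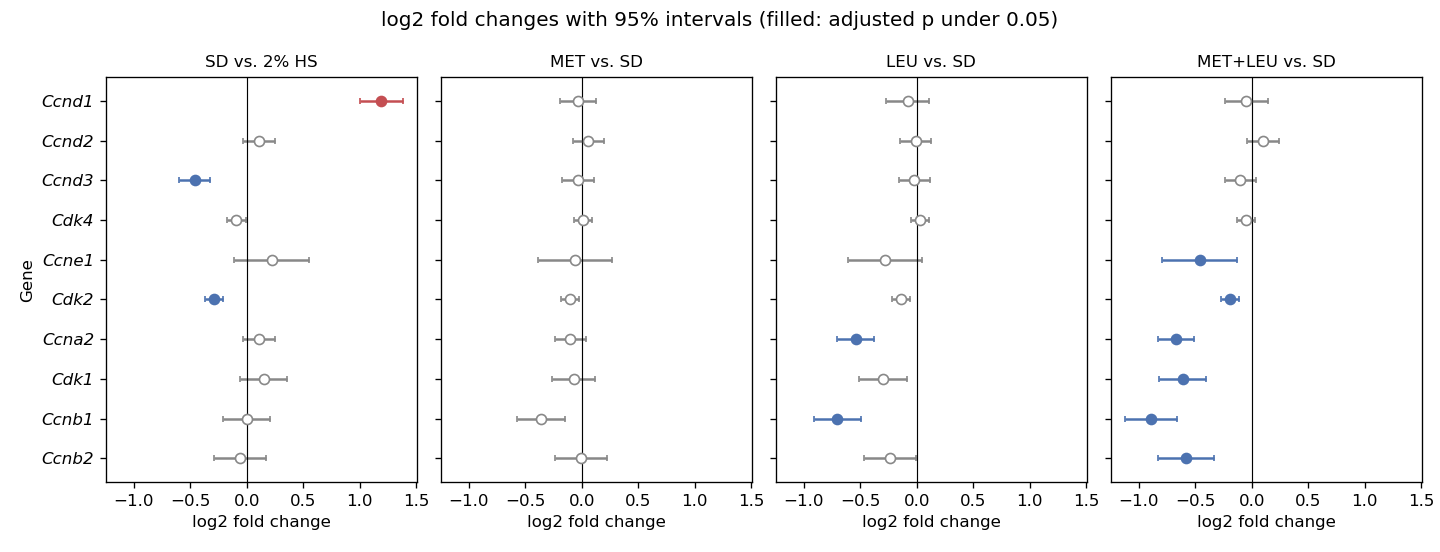
log2 fold changes (horizontal axes) of the 10 genes (vertical axis) in 4 comparisons, with 95% intervals and filled points where the adjusted p was under 0.05 (red higher, blue lower). In SD vs. 2% HS the filled points are Ccnd1 at 1.19, Ccnd3 at -0.46 and Cdk2 at -0.29, and in MET+LEU vs. SD they run from -0.19 for Cdk2 to -0.89 for Ccnb1.

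Set side by side by role, the 4 S and M phase cyclins and Cdk1 counted 0 of 5 changed in SD vs. 2% HS (beside 27.8% of all genes), and against SD they counted 0 with MET (0.157%), 2 with LEU (0.553%) and 5 with MET+LEU (18.4%). For the 5 with MET+LEU, DESeq2 also changed 5, and limma-voom changed 4, all but Ccne1. For the 0 in SD vs. 2% HS, edgeR gave 0 at an unadjusted p under 0.05, and DESeq2 and limma-voom changed 0. For the 0 in MET vs. SD, edgeR gave 1 (Ccnb1) at an unadjusted p under 0.05, limma-voom changed 0, and DESeq2 gave an adjusted p for Ccna2 only, which did not pass. Beside the same shares of all genes, the D-type cyclins counted 2 of 3 changed in SD vs. 2% HS and 0 of 3 in MET, LEU and MET+LEU vs. SD, where edgeR gave 0 at an unadjusted p under 0.05 in each and DESeq2 and limma-voom changed 0. The median log2 fold change in MET+LEU vs. SD was -0.62 over the S and M phase cyclins and -0.05 over the D-type cyclins, beside -0.01 over all genes tested. With 3 to 5 genes per role, these counts describe the genes and were not tested as groups.

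A difference in mean log2 CPM (prior count 2) between the 3 D-type and the 4 S and M phase cyclins, set to 0 for the mean of 2% HS, gave the parting in each library. It was 0.19 ± 0.14 in SD, and with treatment it was 0.34 ± 0.15 (MET), 0.60 ± 0.10 (LEU) and 0.81 ± 0.19 (MET+LEU; s.d., n = 6). The D-type term was nearly level across the serum-free groups, from 0.24 (LEU) to 0.27 (SD and MET), and the S and M phase term carried the order, at 0.07 in SD, then -0.06 (MET), -0.36 (LEU) and -0.57 (MET+LEU). SD libraries ranged from 0.04 to 0.37 and MET+LEU libraries from 0.58 to 1.02, with no overlap. The D-type term averages Ccnd1, which rose, with Ccnd3, which fell, so it describes neither. Leaving out any library kept the difference between 0.16 and 0.23 for SD and between 0.77 and 0.86 for MET+LEU.

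**Figure D4:**
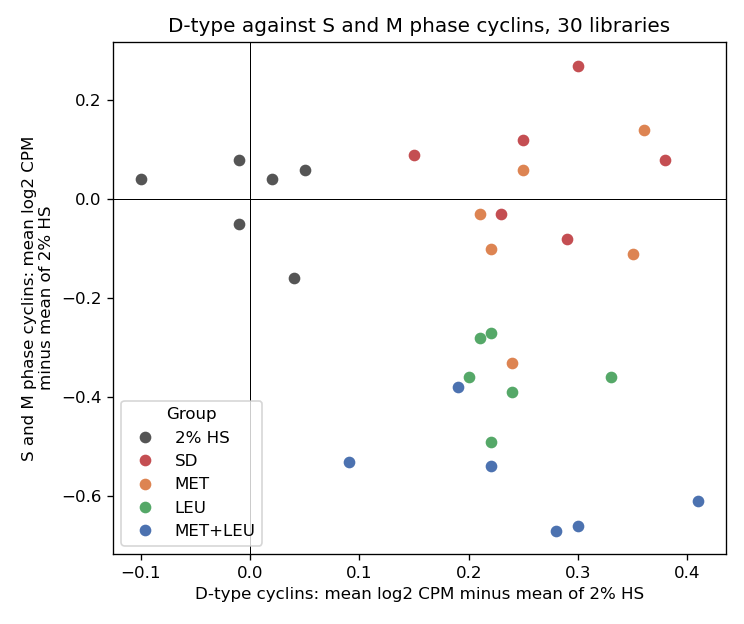
Mean log2 CPM of the D-type cyclins (horizontal axis) against that of the S and M phase cyclins (vertical axis), each minus the mean of 2% HS, for 30 libraries coloured by group. The serum-free groups share a D-type range of 0.09 to 0.41, while the S and M phase values run from -0.08 to 0.27 in SD and from -0.67 to -0.38 in MET+LEU.

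The combination was set against each agent and against serum. In MET+LEU vs. MET, Ccna2 (-0.57 ± 0.08, adjusted p = 8.3e-06), Cdk1 (-0.54 ± 0.10, 5.3e-04), Ccnb1 (-0.53 ± 0.11, 0.00156) and Ccnb2 (-0.56 ± 0.12, 0.00205) were downregulated, 4 of 10 members beside 8.69% of all genes (3.15% downregulated). In MET+LEU vs. LEU, edgeR changed 0 of 10 members beside 6.28% of all genes, 3 (Cdk4, Cdk1 and Ccnb2) had an unadjusted p under 0.05, DESeq2 changed 2 (Ccnb2 and Cdk1) and limma-voom 0. Cdk1 passed in that comparison with upper-quartile scaling (adjusted p = 0.0461) and without 2% HS replicate 1 (0.0495) or 2 (0.0481), SD replicate 1 (0.0492) or 6 (0.0451), LEU replicate 4 (0.0411) or MET+LEU replicate 1 (0.0322) or 2 (0.0439), and Ccnb2 without MET+LEU replicate 3 (0.0454). The interaction, which asks whether the combination departed from the sum of both agents on the log2 scale, changed 0 of 10 members beside 0.0503% of all genes, with 0 at an unadjusted p under 0.05 and 0 by limma-voom, while DESeq2 gave an adjusted p for Ccnd3 only, which did not pass. Its intervals were wide, for example -0.65 to 0.01 for Ccnb2 and -0.14 to 0.48 for Ccnb1 on the log2 scale. In MET+LEU vs. 2% HS, 9 of 10 members changed beside 42.3% of all genes: Ccnd1 and Ccnd2 were higher, the other members except Ccne1 were lower, and Ccnb1 fell by 46.1%, Ccna2 fell by 32.5% and Ccnb2 fell by 35.6%. In MET vs. 2% HS, 4 of 10 members changed beside 35% of all genes (Ccnd1 up, Ccnd3, Ccnb1 and Cdk2 down), and in LEU vs. 2% HS 6 of 10 beside 29.7% (Ccnd1 up, Ccnd3, Ccna2, Ccnb1, Ccnb2 and Cdk2 down). Both counts depended on the fit: for MET vs. 2% HS they ran from 4 to 6 as libraries were left out, and Ccnd2, at an adjusted p of 0.053, passed in 11 of 38 alternatives (0.0153 to 0.0499), among them DESeq2 (0.0475) and leaving out 2% HS replicate 2, MET replicate 2 or 6, or MET+LEU replicate 2, 3 or 6. Cdk4 passed there in 4 (0.0349 to 0.0467), with upper-quartile scaling and without 2% HS replicate 1 or 5 or MET replicate 6. For LEU vs. 2% HS, Ccnb2 (adjusted p = 0.0394) was lost with no low-count filter (0.0626) and without 2% HS replicate 1 (0.124), 3 (0.105) or 6 (0.0593) or LEU replicate 2 (0.0563), 4 (0.0721) or 5 (0.0984).

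The CDK inhibitors, which are brakes on these kinases, were listed together with the pocket proteins of the retinoblastoma family. Of the 10 listed genes 8 were tested (Cdkn2a and Cdkn2b were below the filter). In SD vs. 2% HS, 2 were upregulated and 2 downregulated (25% each way, beside 13.9% of all genes each way). Cdkn1a, which encodes the inhibitor p21, rose from 1766 ± 73.9 to 2394 ± 179 CPM (log2 fold change 0.44 ± 0.04, adjusted p = 5.1e-12), and Cdkn2c also rose. Rb1, the retinoblastoma gene, fell from 152 ± 6.26 to 117 ± 8.98 CPM (-0.38 ± 0.04, 5.0e-10), and Cdkn1b, which encodes p27, fell from 82.8 ± 5.75 to 72.4 ± 5.2 CPM (-0.20 ± 0.05, 0.00184). With MET+LEU against SD these 4 genes moved in the opposite direction, with Cdkn1a at 2123 ± 129 CPM (-0.17 ± 0.04, 0.00236) and Cdkn1b at 82.6 ± 6.97 CPM (0.19 ± 0.05, 0.0043). Rbl2, another pocket protein gene, was upregulated as well (0.19 ± 0.04, 6.0e-04), so 3 rose and 2 fell (37.5% and 25%, beside 10.6% and 7.8% of all genes). In a fit of the compared groups alone Rb1 (adjusted p = 0.0789) and Cdkn2c (0.0528) lost their calls, and Rb1 also without SD replicate 1 (0.0687). The median of the list was -0.02 after serum removal and -0.03 with MET+LEU against SD, close to the 0.00 and -0.01 of all genes. Both comparisons use the same 6 SD libraries, and in MET+LEU vs. 2% HS the list counted 2 higher (Cdkn1a and Rbl2) and 1 lower (Rb1), or 25% and 12.5%, beside 22.1% and 20.3% of all genes. Without SD replicate 5, 4 rather than 2 were downregulated in SD vs. 2% HS.

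Transcription factors of the E2F, DP and MYB-FOXM1 families counted 14, all tested. Serum deprivation upregulated 1 of 14 (7.14%, beside 13.9% of all genes), Tfdp1, an E2F partner, from 79.2 ± 3.89 to 85.7 ± 2.78 CPM (0.11 ± 0.04, adjusted p = 0.0267). That call was lost without 2% HS replicate 1, 4 or 5 or SD replicate 3, 5 or 6 (adjusted p = 0.0507 to 0.0791). In LEU vs. SD 1 was downregulated (7.14%, beside 0.321% of all genes), Foxm1, and 0 without SD replicate 1, 2, 5 or 6 or LEU replicate 2, 4, 5 or 6. Of the 14, 3 were downregulated in MET+LEU vs. SD (21.4%, beside 7.8% of all genes) and 0 upregulated (beside 10.6% of all genes). The upregulated count was also 0 at an unadjusted p under 0.05, in DESeq2 and in limma-voom. Foxm1, an activator of mitotic genes, fell from 15.8 ± 1.18 to 10.6 ± 1.61 CPM (-0.57 ± 0.09, 1.3e-05), and E2f7, a repressor of the family, from 8.76 ± 1.17 to 5.61 ± 0.851 CPM (-0.65 ± 0.12, 1.7e-04), each with all 6 MET+LEU libraries below SD. E2f2 fell from 106 ± 11.8 to 92.0 ± 9.36 CPM (-0.20 ± 0.07, 0.0415). It lost its call with no low-count filter (0.0909), in a fit of the compared groups alone (0.106), and without SD replicate 1 (0.126), 2 (0.0536) or 3 (0.0845) or MET+LEU replicate 2 (0.0661), 5 (0.0514) or 6 (0.12).

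Among the 14 partners, activators and brakes of Cdk1 and Cdk2, all tested, 2 were upregulated and 1 downregulated in SD vs. 2% HS (14.3% and 7.14%, beside 13.9% of all genes each way). Wee1, a kinase that restrains Cdk1, fell from 12.3 ± 1.07 to 9.86 ± 1.27 CPM (-0.32 ± 0.10, adjusted p = 0.00845). Cdc25a, a phosphatase that activates these kinases, rose from 18.4 ± 1.22 to 21.3 ± 1.21 CPM (0.21 ± 0.07, 0.0211), and Cks1b, a small kinase-binding subunit, from 8.22 ± 0.726 to 9.95 ± 1.38 CPM (0.28 ± 0.10, 0.0223). Both calls depended on single libraries: that of Cdc25a was lost without 2% HS replicate 2 (0.0704) or SD replicate 4 (0.0536) or 6 (0.0538), and that of Cks1b without 2% HS replicate 1 (0.0572) or 4 (0.0581) or SD replicate 3 (0.094), 4 (0.0535) or 6 (0.0515). With MET+LEU against SD, 8 of 14 were downregulated (57.1%, beside 7.8% of all genes) and 1, Fbxw7, was upregulated (7.14%, beside 10.6% of all genes). Pkmyt1, another Cdk1-restraining kinase, fell from 4.68 ± 0.579 to 2.53 ± 0.387 CPM (-0.90 ± 0.14, 1.3e-05), and the mitotic kinases Plk1 from 7.40 ± 1.27 to 4.61 ± 0.893 CPM (-0.67 ± 0.12, 9.1e-05) and Aurka from 5.72 ± 0.905 to 3.00 ± 0.766 CPM (-0.91 ± 0.16, 9.3e-05). The downregulated count was 6 without MET+LEU replicate 6, 5 without SD replicate 3, and 5 to 9 over all libraries left out in turn. With LEU, edgeR changed 0 of 14 against SD (beside 0.553% of all genes) and limma-voom 0, although 9 were lower at an unadjusted p under 0.05 and DESeq2 lowered 2.

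S phase and proliferation markers were all 20 tested. In SD vs. 2% HS all their calls were upward, and in MET+LEU vs. SD, which shares the SD libraries, all were downward. Without SD replicate 6, 1 was also downregulated in SD vs. 2% HS. Calls went both ways in MET vs. 2% HS (4 higher and 2 lower, beside 35% of all genes). They also did in LEU vs. 2% HS (1 higher and 6 lower, beside 29.7% of all genes). Of the 20, 10 were upregulated (50.0%) and 0 downregulated in SD vs. 2% HS, beside 13.9% of all genes each way. At an unadjusted p under 0.05, 1 was lower, and DESeq2 and limma-voom lowered 0. The replicative helicase genes Mcm6 and Mcm5 rose from 24.3 ± 1.42 to 30.5 ± 3.30 CPM (0.33 ± 0.06, adjusted p = 2.1e-05) and from 9.21 ± 0.824 to 12.5 ± 1.41 CPM (0.44 ± 0.10, 9.8e-04), and the replication licensing gene Cdc6 from 2.04 ± 0.424 to 3.46 ± 0.406 CPM (0.75 ± 0.17, 5.2e-04). As many as 16 of 20 were downregulated in MET+LEU vs. SD (80%, beside 7.8% of all genes) and 0 upregulated (beside 10.6%). The upregulated count was also 0 at an unadjusted p under 0.05, in DESeq2 and in limma-voom. Mcm5 fell to 7.39 ± 1.40 CPM (-0.76 ± 0.11, 2.0e-06), Top2a, the topoisomerase of dividing cells, from 63.0 ± 7.09 to 40.4 ± 2.65 CPM (-0.64 ± 0.08, 6.3e-07), and Rrm2, a ribonucleotide reductase subunit, from 99.8 ± 6.43 to 83.0 ± 4.38 CPM (-0.26 ± 0.04, 1.4e-05). Without MET+LEU replicate 6 the downregulated count was again 16, and in MET+LEU vs. 2% HS, which uses no SD library, 10 of 20 were downregulated (50.0%, beside 20.3% of all genes). In LEU vs. SD 5 of 20 were downregulated (25%, beside 0.321% of all genes), and that count was 2 without SD replicate 6 or LEU replicate 2, 3 or 4, 3 without SD replicate 5 or LEU replicate 1, and 8 without MET+LEU replicate 6. In MET vs. SD 0 changed by edgeR (beside 0.157% of all genes) or limma-voom, with 6 lower at an unadjusted p under 0.05. DESeq2 changed 0 there while giving no adjusted p for 9 of the 20. The upregulated genes were Birc5, Cdc6, Gins2, Mcm2, Mcm3, Mcm4, Mcm5, Mcm6, Pcna and Tk1, most of them replication genes, and the S and M phase cyclins were not among the changed genes of that comparison.

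Regulators upstream of the D-type cyclins, all 14 tested, held 5 upregulated (35.7%) and 0 downregulated genes in SD vs. 2% HS, beside 13.9% of all genes each way. At an unadjusted p under 0.05, 1 was lower, and DESeq2 and limma-voom lowered 0. Jun, an immediate early transcription factor, rose from 165 ± 6.13 to 214 ± 15.7 CPM (0.37 ± 0.04, adjusted p = 3.2e-09), Tcf7l2, a transcription factor of the Wnt pathway, from 63.3 ± 4.47 to 80.4 ± 10.9 CPM (0.34 ± 0.07, 1.4e-04), and Ambra1, a ubiquitin ligase adaptor for D-type cyclins, from 81.2 ± 2.80 to 90.1 ± 4.47 CPM (0.15 ± 0.04, 0.00166). With MET+LEU against SD, 3 rose and 3 fell (21.4% each way, beside 10.6% and 7.8% of all genes). Cul3, a ubiquitin ligase scaffold, went from 230.1 ± 13.5 to 270.0 ± 14.8 CPM (0.23 ± 0.04, 1.4e-05), Mef2c, a muscle transcription factor, from 830.0 ± 43.9 to 982 ± 38.2 CPM (0.24 ± 0.04, 3.3e-05), and the receptor gene Notch1 from 219 ± 10.9 to 179.7 ± 10.7 CPM (-0.29 ± 0.04, 2.0e-06). Egr1 was the 1 gene of the list that changed under a single agent, upward with MET and with LEU against SD. It made 7.14% of the list each time, beside 0.157% (MET) and 0.553% (LEU) of all genes. The MET call was lost without SD replicate 2 or MET replicate 1, 4, 5 or 6. In MET+LEU vs. SD Egr1 was not called, and it was downregulated in MET+LEU vs. MET and in MET+LEU vs. LEU. It was also the 1 gene of the list called in the interaction, downward (7.14%, beside 0.0503% of all genes). Without SD replicate 1 the 5 upregulated genes of SD vs. 2% HS became 3.

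Of 36 other cyclins, cyclin-dependent kinases and their assembly factor, 32 were tested. In SD vs. 2% HS 5 rose and 5 fell (15.6% each way, beside 13.9% of all genes each way). Cdk14 rose from 61.2 ± 4.03 to 75.9 ± 3.48 CPM (0.31 ± 0.04, adjusted p = 1.1e-07) and Cdk6, the relative of Cdk4, from 38.3 ± 2.33 to 48.3 ± 4.47 CPM (0.33 ± 0.05, 3.8e-06), while Ccng2 fell from 61.0 ± 3.76 to 46.8 ± 5.61 CPM (-0.38 ± 0.06, 1.5e-06). Against SD, 4 rose and 2 fell with MET+LEU (12.5% and 6.25%, beside 10.6% and 7.8% of all genes). Mnat1, the assembly factor of the Cdk-activating kinase, rose from 47.6 ± 3.44 to 58.4 ± 8.13 CPM (0.29 ± 0.06, 3.9e-04) and Ccnc, cyclin C of the transcription machinery, from 28.1 ± 2.88 to 33.4 ± 3.15 CPM (0.25 ± 0.07, 0.00532), while Cdk18 fell from 55.1 ± 5.27 to 48.2 ± 2.07 CPM (-0.20 ± 0.05, 0.00383). Neither single agent changed any of the 32 by edgeR or limma-voom against SD, where edgeR changed 0.157% (MET) and 0.553% (LEU) of all genes. At an unadjusted p under 0.05, edgeR gave 3 higher and 3 lower with MET and 2 higher and 1 lower with LEU, and DESeq2 changed 1 in each direction with MET (6 of 32 without an adjusted p) and 1 upward with LEU (1 without). The 2 downregulated in MET+LEU vs. SD became 4 without SD replicate 3 or 6 and 5 without MET+LEU replicate 2.

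**Figure D5:**
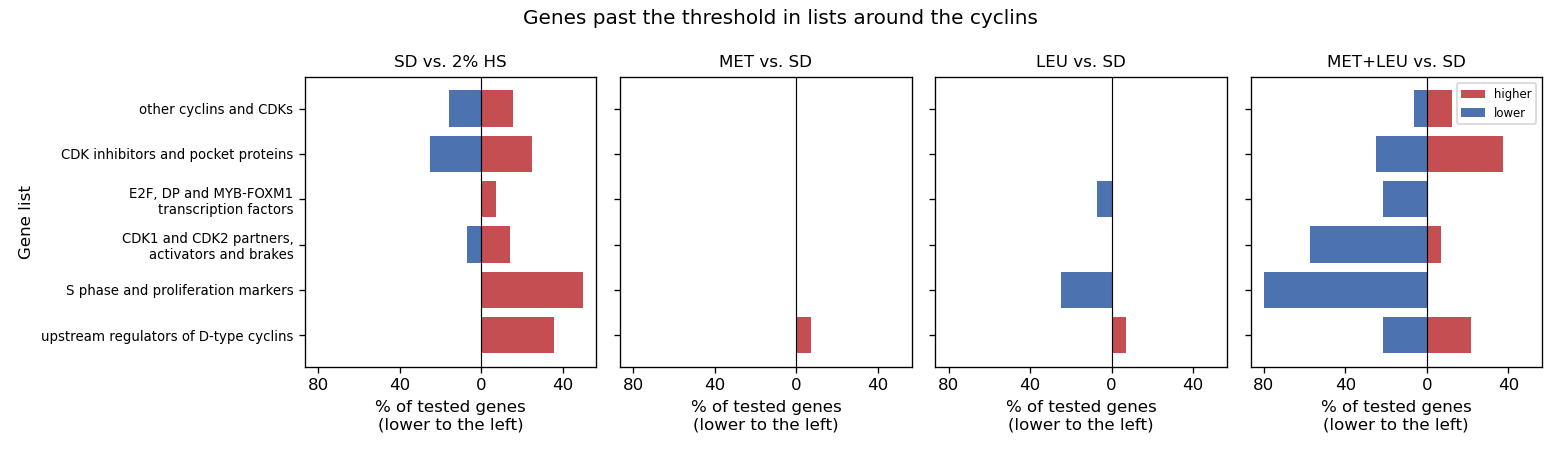
Percentage of tested genes of each list (vertical axis) that were past the threshold, upregulated to the right in red and downregulated to the left in blue (horizontal axes), in 4 comparisons. The S phase and proliferation markers reach 50.0% upregulated in SD vs. 2% HS and 80% downregulated in MET+LEU vs. SD.

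Some genes used as cell type markers moved as well. The cultures were of 1 line, so these values describe transcripts and do not count cells of the named types. The 6 markers of proliferating myoblasts or reserve cells, all tested, summed to 1125 to 1226 CPM in 2% HS and 856 to 1047 CPM in SD. Between these groups Myod1, Pax7, Cdh15 and Heyl were downregulated (4 of 6, beside 13.9% of all genes). In MET+LEU they summed to 767 to 919 CPM, and Cdh15 was the 1 marker downregulated vs. SD (1 of 6, beside 7.8% of all genes). The 10 myotube markers summed to 39155 to 42092 CPM in 2% HS, 32359.6 to 34849.7 in SD and 31318 to 40102 in MET+LEU. Most of each sum was Ttn, with means of 30972 CPM in 2% HS, 24592 in SD and 24363 in MET+LEU, so the sums mainly describe that gene. Serum deprivation raised Des and lowered Ckm and Ttn (1 and 2 of 10, beside 13.9% of all genes each way). MET+LEU raised Tnnc2, Myh3, Myh8 and Tnnt3 against SD (4 of 10, beside 10.6% of all genes). Of 4 fibroblast markers 3 were tested, and the sum was 22.7 to 32.0 CPM in 2% HS, 38.9 to 51.2 in SD and 50.6 to 61.3 in MET+LEU. Dcn, Pdgfra and Lum were upregulated in SD vs. 2% HS (3 of 3, beside 13.9% of all genes) and Dcn in MET+LEU vs. SD (1 of 3, beside 10.6%). Marker sums stayed at or below 0.229 CPM for adipocytes, 0.539 for osteoblasts and 0.770 for endothelial cells, with Lep at 0 in all 30 libraries. The immune sum of 1.53 to 3.73 CPM was almost wholly Cd68, since Ptprc and Lyz2 held at most 4 counts in any library. The part of these marker changes in the changes of the cyclins was not tested.

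Some members share exonic bases with a gene on the opposite strand: Ccnd1 with LTO1 (1100 bases), Cdk4 with Tspan31 (641), Ccna2 with Exosc9 (510), Ccnd3 with Bysl (361) and Cdk2 with Pmel (34). The library kit keeps strand, but the strand setting of the counting is not given in the sources used here, so reads of such pairs may be split uncertainly. LTO1 did not pass the test where Ccnd1 rose, at 12.2 CPM in 2% HS and 13 in SD (log2 fold change 0.10, adjusted p = 0.409). Exosc9 went against Ccna2 in MET+LEU vs. SD (0.17, adjusted p = 0.0411), and Bysl and Tspan31 went against Ccnd3 and Cdk4 in SD vs. 2% HS (0.22, 0.00162, and 0.16, 0.00528). Ccnd2 overlaps the antisense genes 9330179D12Rik and Gm43126, which held at most 3 and 0 counts. The pseudogenes Ccnb1-ps, Ccnb2-ps and Ccnd3-ps held at most 2, 11 and 6 counts, and reads shared with a near-identical copy cannot be told apart.

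Across the 30 libraries, which share their groups, Pearson correlations of log2 CPM over 12698 genes gave the patterns most like each member, as a description. Ccna2 ran closest to Top2a (0.922) and Hmmr (0.903), Cdk1 to Top2a (0.862) and Neurl1b (0.845), Ccnb1 to Aspm and Racgap1 (0.874 each) and Ccnb2 to Racgap1 (0.854) and Fam83d (0.85). Ccne1 ran closest to Ndc80 (0.738) and Sirt7 (0.703). The nearest genes to Ccnd1 were Tril (0.959) and Dpt (0.952), to Ccnd2 Rnf19a (0.707) and Sde2 (0.695), and to Ccnd3 Mrc2 (0.964) and Notch3 (0.96). Cdk4 was nearest to Mymk (0.848) and Myod1 (0.822), and Cdk2 to Capn6 (0.938) and Cdh15 (0.934). Once group means were removed, every value was lower. Those for Ccnd3 were 0.857 and 0.885, for Ccnd1 0.516 and 0.4, for Ccnb1 0.434 and 0.474, and for Cdk2 0.138 and 0.305. The values of the other members lay between 0.498 (Cdk1 with Neurl1b) and 0.79 (Ccna2 with Hmmr). Among the members, Ccnb1 with Ccna2 gave 0.85 (0.40 within groups), Ccnb1 with Cdk1 0.77 (0.57) and Ccnd1 with Ccnd3 -0.84 (-0.12).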

How the data were processed

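Total RNA for 30 libraries of C2C12 myotubes was depleted of ribosomal RNA, made into stranded libraries and sequenced in pairs by the authors. The deposited values are raw counts, whole numbers per Ensembl gene with no normalization. The submitters' processing notes name cutadapt 1.16, STAR 2.7.6a, featureCounts 1.6.3, DESeq2 1.30.1 and GRCm38, and the annotation release and strand setting are not given in the sources used here.

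Symbols, positions and exon lengths came from GENCODE M21, which held 55141 of the 55487 identifiers, and 346 were not matched. In R 4.3.3, edgeR 4.0.16 kept genes with filterByExpr (minimum count 10, minimum total count 15), scaled libraries by TMM and fitted all 5 groups with glmQLFit (robust), with no block for replicate number. Quasi-likelihood F tests were adjusted by Benjamini-Hochberg over 15907 genes. The SE is the absolute log2 fold change divided by the square root of F, and 95% intervals used 25 degrees of freedom. Libraries held 12784960 to 19604103 counts. Chi-square values per gene between replicates, 2.333 or more, were above sampling noise, so no libraries were merged. On simulated data, edgeR recovered 165 of 200 genes changed 1.5-fold in MET+LEU vs. SD (15743 genes), with 10 false calls among 175. The scarcest genes were not drawn among the 200, and the simulated spread was the one estimated from these libraries. In the data 2931 genes changed in that comparison, so the recovered share need not hold for the calls given here.

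The members and lists were chosen with earlier results of these data known. Beyond the 10 members and the markers, the text names up to 3 changed genes of each list for serum removal and for MET+LEU against SD, by smallest adjusted p, and the 2 genes most correlated with each member among those averaging 1 or more in log2 CPM. Other list genes named beside counts, the overlapping genes and the pseudogenes were named after their values were seen. Alternatives were DESeq2 size factors, upper-quartile scaling, DESeq2 1.42.0 (Wald test), limma-voom (limma 3.58.1), genes with a total over 5 counts, only the groups compared, a replicate block, no robust option, a prior count of 0.5 for the class means, and leaving out each library.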

Additional observations from a re-analysis of the deposited data

Results flagged for a closer look

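In groups of 6 libraries, a lowest or highest value is singled out by Dixon's test when its gap to the nearest library, divided by the group's range, is above 0.625. Of 50 groups (10 genes in 5 groups), 4 held such a library, and chance gives about 1 in 20. Ccnd1 was at 14 CPM in SD replicate 2, where the other 5 held 20 to 22.9 CPM. Cdk1 was at 17.5 CPM in SD replicate 6, where the others held 13.3 to 14.4 CPM, and Cdk4 in the same library was at 90.8 CPM, where the others held 97.0 to 100.1 CPM. Ccnd3 was at 152 CPM in MET+LEU replicate 6, where the others held 195 to 220.3 CPM. That library also held the highest shares of ribosomal and mitochondrial ribosomal RNA counts (5.85% and 7.64%), and their part in the value was not tested.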

How the results depend on the processing

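The log2 fold changes of the 10 members in all 11 comparisons were recomputed under 38 alternatives, or 37 for the 14 values to which DESeq2 gave no adjusted p (4 in MET vs. SD, 1 in LEU vs. MET and 9 in the interaction). Of these recomputed values, 4061 kept their direction and their side of the threshold, 51 turned direction, 33 newly passed the threshold and 21 no longer passed it. Ccna2 in MET vs. 2% HS turned with upper-quartile scaling (-0.005), and ran from -0.05 to 0.045 as libraries were left out. Ccnb1 in SD vs. 2% HS turned with upper-quartile scaling (-0.008) and limma-voom (-0.001), and ran from -0.028 to 0.037 as libraries were left out. The other turns came from leaving out a library, all in uncalled values near 0: in MET vs. SD Ccnd1 (-0.111 to 0.014), Ccnd3 (-0.06 to 0.027), Ccne1 (-0.134 to 0.009), Ccnb2 (-0.063 to 0.066) and Cdk4 (-0.01 to 0.019), in LEU vs. SD Ccnd2 (-0.036 to 0.008) and Ccnd3 (-0.053 to 0.034), in MET+LEU vs. MET Ccnd1 (-0.076 to 0.004) and Ccnd2 (-0.013 to 0.087), in MET+LEU vs. LEU Ccnd1 (-0.026 to 0.076), in LEU vs. 2% HS Ccne1 (-0.164 to 0.064), in LEU vs. MET Ccnd3 (-0.005 to 0.017), and in the interaction Ccnd2 (-0.007 to 0.096), Ccnd3 (-0.116 to 0.0) and Ccna2 (-0.096 to 0.015).

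The count of members changed in MET+LEU vs. LEU was 1 with upper-quartile scaling and 2 with DESeq2, and 0 to 1 with libraries left out. Over all genes, DESeq2 changed 120 rather than 25 genes in MET vs. SD, 168 rather than 88 in LEU vs. SD, 55 rather than 12 in LEU vs. MET and 28 rather than 8 in the interaction. A fit of only the groups compared, with fewer libraries, changed 197 genes in LEU vs. SD, 1422 rather than 2931 in MET+LEU vs. SD, 589 rather than 1382 in MET+LEU vs. MET, 311 rather than 999 in MET+LEU vs. LEU, 164 in LEU vs. MET and 1 in the interaction. The interaction gave 5 genes with DESeq2 size factors, 4 with upper-quartile scaling, 3 with no low-count filter and 5 without the robust option. With a library left out, genes changed ran from 4 to 160 in MET vs. SD, 43 to 269 in LEU vs. SD and 2175 to 3159 in MET+LEU vs. SD. They ran from 726 to 1558 in MET+LEU vs. MET, 396 to 1293 in MET+LEU vs. LEU, 1 to 44 in LEU vs. MET and 1 to 11 in the interaction. The 160, 269, 2175 and 726 came without MET+LEU replicate 6. The cause of these differences was not tested.

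Same-numbered libraries of different groups correlated at a mean of 0.0157 (-0.0913 to 0.142 over 60 pairs), 2 pairs were over 0.1, and 9 of 30 libraries correlated best with their own number, so numbers were not taken as pairs. With a replicate block the members changed were as many as without it except in MET vs. 2% HS, where Ccnd2 passed (adjusted p = 0.0464) and 5 rather than 4 changed, and the genes changed were 52 in MET vs. SD, 21 in LEU vs. MET and 17 in the interaction. Depth limits Ccne1 most, at 22 to 69 counts per library.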
